A study of Mus musculus with 4 samples.

Results

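The Dlx genes encode homeodomain transcription factors related to Distal-less of the fruit fly. The mouse genome holds 6 of them in 3 linked pairs, Dlx1-Dlx2, Dlx3-Dlx4 and Dlx5-Dlx6. Their transcript levels are described here in the mesenchyme of molar tooth germs with 1 or no intact copy of Msx1. Members were taken by name from the deposited transcript tables: the 6 coding genes and Dlx1as, a noncoding RNA that overlaps Dlx1, which are 7 of 22072 gene names. All 7 were present, none had a failed estimate, and 6 of 7 reached a mean of 1 FPKM over the libraries (Dlx4 did not). FPKM is fragments scaled by transcript length and library size, so levels of different genes can be set beside each other.

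The study compared Msx1-/- (mutant) with Msx1+/- (control) mouse embryos at embryonic day 14, of mixed background. Upper (maxillary) and lower (mandibular) molar mesenchyme was isolated by laser capture microdissection of sectioned frozen heads. There are 4 libraries, 1 for each genotype and jaw. Before RNA was extracted, material from 3 pairs of control and mutant was combined, so each library is a pool and spread between embryos cannot be seen. The control carries 1 mutant copy of Msx1, although the title of the series names it wild type. The labels do not name the mutant allele. No difference below has a replicate check. The words higher, lower and counted are kept for differences of 1 or more in log2(FPKM + 1), unless FPKM values themselves are being set side by side.

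In the head, Dlx genes are expressed in the neural crest mesenchyme of the pharyngeal arches in a nested pattern. Dlx1 and Dlx2 are active in both the upper and the lower jaw primordium, Dlx5 and Dlx6 mainly in the lower, and Dlx3 and Dlx4 in a more distal zone within it. The genes of a linked pair face each other and share enhancers in the sequence between them. Mice without both Dlx1 and Dlx2 lack upper molars, and mice without both Dlx5 and Dlx6 form a lower jaw with upper jaw features. Msx1 is itself a homeodomain factor of the dental mesenchyme.

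All 6 Dlx proteins bind DNA through a homeodomain, whose recognition helix lies in the major groove. The coding stretch of that helix is printed to show how alike linked partners are in the part that reads DNA, and how far short reads could be shared between members. Each line has 51 coding bases, 5′ to 3′, from GENCODE M21 transcripts (GRCm38), and capitals mark bases that differ from the linked partner.
Dlx1: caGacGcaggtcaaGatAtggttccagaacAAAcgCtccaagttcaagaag
Dlx2: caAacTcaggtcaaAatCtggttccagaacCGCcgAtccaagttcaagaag
Dlx3: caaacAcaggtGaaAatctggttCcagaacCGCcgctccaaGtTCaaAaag
Dlx4: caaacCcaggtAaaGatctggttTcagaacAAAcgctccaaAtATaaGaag
Dlx5: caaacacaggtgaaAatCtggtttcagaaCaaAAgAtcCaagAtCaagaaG
Dlx6: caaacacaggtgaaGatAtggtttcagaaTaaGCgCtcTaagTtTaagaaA

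In every one of the 6 genes this stretch crosses a splice junction, with 9 bases in exon 2 and 42 in exon 3. The exon 3 parts lie at chr2:71532264-71532305 (plus strand) for Dlx1 and chr2:71544883-71544924 (minus strand) for Dlx2. For Dlx3 and Dlx4 they lie at chr11:95123409-95123450 (plus) and chr11:95141428-95141469 (minus). For Dlx5 and Dlx6 they lie at chr6:6878447-6878488 (minus) and chr6:6867041-6867082 (plus). Linked partners differed at 8 bases of the helix in Dlx1-Dlx2, 11 in Dlx3-Dlx4 and 10 in Dlx5-Dlx6. Over the whole homeobox of 180 bases, identity between Dlx genes ran from 66.1% to 81.7% over 15 comparisons. The closest genes were Dlx2 and Dlx3, which are not linked, whereas the linked pairs stood at 73.9% (Dlx1-Dlx2), 71.7% (Dlx3-Dlx4) and 73.3% (Dlx5-Dlx6). Msx1 was 58.9% to 65.0% identical to the Dlx genes. The longest run of identical bases shared by any 2 of these Dlx transcripts was 23 bases. The sources used here do not give the read length.

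Summed coverage over annotated transcripts ranged from 264 to 410 megabases per library and was lowest in mutant lower molars. The median genotype difference over the 10535 genes kept was -0.03 for upper molars, and it was -0.39 for lower ones, where the mutant library read below the control for most genes. Msx1 was read at 170 FPKM in control upper, 184 in control lower, 126 in mutant upper and 85.9 in mutant lower molars, and since the allele is unnamed this does not check the genotype labels. All 9 markers of dental mesenchyme were kept and none was counted in both jaws (0.399% of all genes were higher and 1.59% lower). In lower molars 2 were lower in the mutant (9.42% of all genes were) and 0 higher (0.864%), with a median genotype difference of -0.62. In upper molars 0 were counted (1.07% of all genes were higher and 3.27% lower), with a median of 0.18. The 9 markers summed to 740 to 957 FPKM. Of the neuron markers, 2 passed the filter, neither counted in both jaws, against the same 0.399% and 1.59% of all genes. Gap43 was at 8.996 FPKM in control upper, 3.54 in control lower, 18.5 in mutant upper and 3.91 in mutant lower molars, and Nefl was at 0.550 to 0.829 FPKM but 3.52 in mutant lower molars. Gad1 and Gad2, genes of Dlx-expressing forebrain neurons, were under 0.1 FPKM in every library. Markers of epithelium, which also expresses some Dlx genes, had 8 of 12 kept. Of these, 1 was higher in both jaws, Krt15 (0.399% of all genes were). They summed to 29.1 FPKM in control upper, 46.6 in control lower, 50.96 in mutant upper and 71.7 in mutant lower molars. In each jaw the sum was larger in the mutant library. Shh, a marker of dental epithelium, was under 0.1 FPKM throughout. Summed markers ranged from 519 to 929 FPKM for erythroid cells, 33.8 to 51.1 for osteoblasts, 35.6 to 42.6 for endothelium, 17.4 to 29.5 for macrophages and 0.889 to 2.15 for melanocytes and glia. Their part in the Dlx values was not tested. In bulk tissue, fewer expressing cells and less RNA per cell cannot be told apart.

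Dlx1as, Dlx2 and Dlx3 were lower in mutant than in control molars of both jaws. Of the 6 members kept, 3 were counted as lower in upper molars (3.27% of all genes were) and 4 in lower molars (9.42% of all genes), and 0 were counted as higher in either jaw (1.07% and 0.864% of all genes). Over the members kept the median was -1.27 in upper molars and -1.57 in lower ones. The 3 genes counted in both jaws stand beside 1.59% of all genes counted as lower in both. Dlx1 was counted in lower molars alone, and Dlx5 and Dlx6 in neither jaw. Over all genes, 113 were higher and 344 lower in upper molars, and 91 higher and 992 lower in lower molars. When libraries were rescaled by median of ratios, all genes divided into 248 higher and 317 lower in lower molars, and rescaling to a common upper quartile gave 156 higher and 267 lower in upper molars. In both jaws together, 42 genes were higher and 168 lower as deposited, and 72 and 122 after median of ratios.

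**Figure D1:**
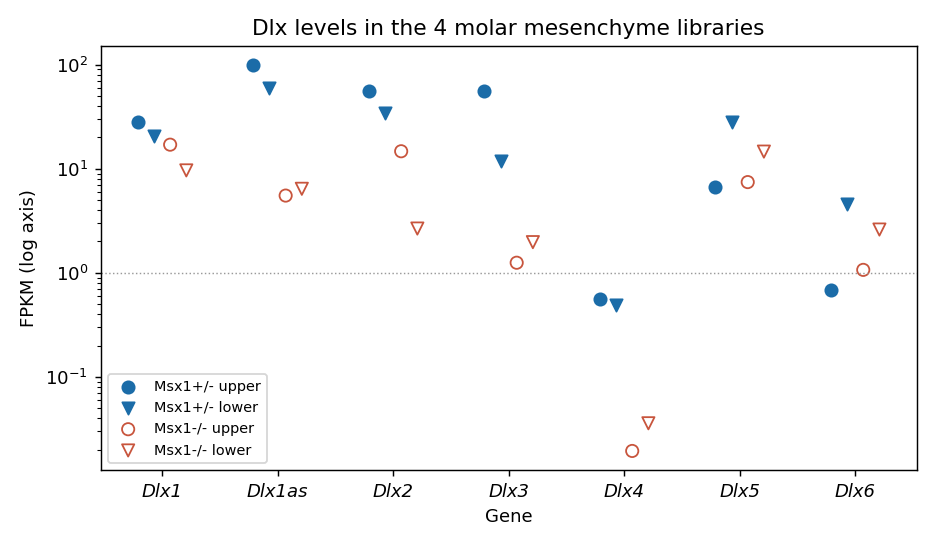
FPKM on a log axis for the 7 Dlx transcripts, with 1 point for each library (filled, Msx1+/-; open, Msx1-/-; circles, upper molars; triangles, lower molars; dotted line, 1 FPKM). Both open symbols lie below both filled symbols for Dlx1, Dlx1as, Dlx2, Dlx3 and Dlx4, while for Dlx5 and Dlx6 both triangles lie above both circles.

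**Figure D2:**
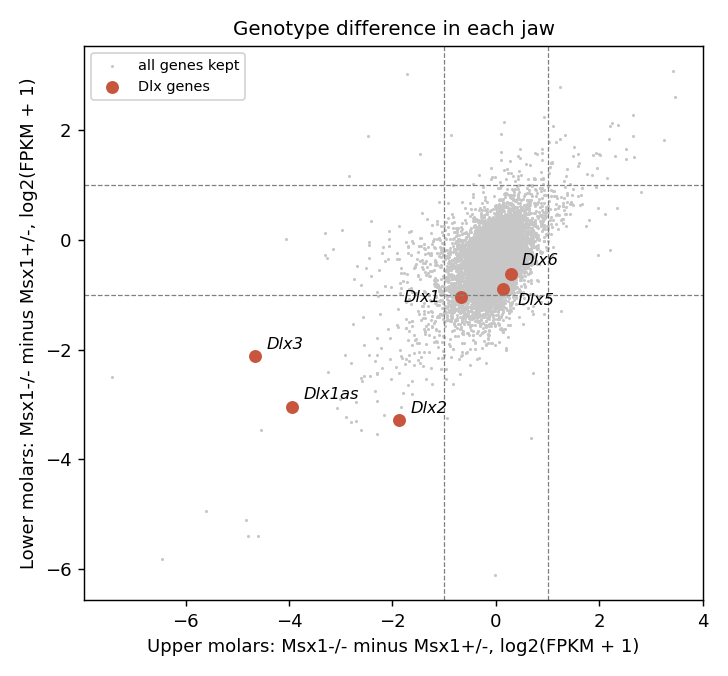
Mutant minus control difference in log2(FPKM + 1) in upper (horizontal axis) and lower molars (vertical axis) for all genes kept (grey) and the 6 Dlx members kept (red), with dashed lines at a difference of 1 either way. Dlx1as, Dlx2 and Dlx3 lie beyond -1 on both axes, Dlx1 does so on the vertical axis alone, and Dlx5 and Dlx6 lie within the lines on both.

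Dlx2 (chromosome 2, 71381465 to 71384811, mm9) is the member most studied in tooth patterning together with Dlx1. It was read at 56.3 FPKM in control upper, 34.7 in control lower, 14.7 in mutant upper and 2.66 in mutant lower molars. Both mutant values lay under both control values, and the mutant lower library was far below the rest. The genotype difference was -1.87 in upper molars and -3.28 in lower molars, which are FPKM ratios of 3.82 and 13.0 in favour of the control. By level, Dlx2 went from rank 788 of the 10535 genes in control lower to rank 6873 in mutant lower molars.

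Dlx1 (chromosome 2, 71367502 to 71372037) lies 9427 bases from Dlx2 and is known to act redundantly with it. Its levels were 27.8 FPKM in control upper, 20.8 in control lower, 17.0 in mutant upper and 9.64 in mutant lower molars. The mutant values were again below the controls, by less than for Dlx2. The difference was -0.68 in upper molars, which is not counted, and -1.04 in lower molars. When libraries were brought to the same median of ratios, upper quartile or total, the lower molar value was -0.58, -0.55 and -0.58, and Dlx1 was then counted in neither jaw.

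In FPKM the linked partners therefore exchanged order of level. Their gap in log2(FPKM + 1) reached 1 in size only in mutant lower molars (1.54) and was 0.20 in mutant upper molars. Dlx1 stood at 0.495 times the FPKM of Dlx2 in control upper and 0.601 times in control lower molars. In the mutant it stood at 1.16 times Dlx2 in upper and 3.62 times in lower molars. On the log2(FPKM + 1) scale the ratio of Dlx1 to Dlx2 was 1.19 higher in mutant than in control upper molars and 2.25 higher in lower molars. A ratio of FPKM within a library does not change when that library is rescaled as a whole. The ratio on the log2(FPKM + 1) scale changes slightly, in mutant lower molars from 1.54 to 1.59 after rescaling by median of ratios.

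Dlx1as (chromosome 2, 71368695 to 71375948) is a spliced noncoding RNA from the strand opposite to Dlx1, and its span covers 73.7% of the span of Dlx1. It was the most abundant member in both controls, at 98.9 FPKM in upper and 59.9 in lower molars, and stood at 5.52 in mutant upper and 6.42 in mutant lower molars. The control and mutant values are far apart. The upper minus lower difference was 0.71 in the control and -0.19 in the mutant. The difference was -3.94 in upper molars and -3.04 in lower molars, or FPKM ratios of 17.9 and 9.34 in favour of the control. Dlx1as stood at 3.55 and 2.88 times the FPKM of Dlx1 in control upper and lower molars, and at 0.324 and 0.665 times in the mutant ones. The amplification used is not stated to keep strand, so reads in the shared span cannot be assigned to one gene with certainty. With Dlx1 and Dlx1as summed, the difference was -2.44 in upper molars and -2.26 in lower molars, counted in both jaws.

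RefSeq promoter windows were in hand for 2 of the 7 members, Dlx1 and Dlx2, and are printed because these linked genes were both below control in the mutant by unequal amounts. Each window runs from 250 bases before to 50 bases after the annotated start (GRCm38.p6), at chr2:71529195-71529494 on the plus strand for Dlx1 and chr2:71546705-71547004 on the minus strand for Dlx2. Capitals mark matches, on either strand, to a GC box (GGGCGG) or a CCAAT box (CCAAT).
Dlx1: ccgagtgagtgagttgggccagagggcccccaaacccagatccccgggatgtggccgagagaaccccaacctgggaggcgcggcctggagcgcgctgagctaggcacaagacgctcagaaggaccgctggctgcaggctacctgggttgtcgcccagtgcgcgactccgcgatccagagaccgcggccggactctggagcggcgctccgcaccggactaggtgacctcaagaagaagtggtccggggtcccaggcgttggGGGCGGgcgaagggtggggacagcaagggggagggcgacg
Dlx2: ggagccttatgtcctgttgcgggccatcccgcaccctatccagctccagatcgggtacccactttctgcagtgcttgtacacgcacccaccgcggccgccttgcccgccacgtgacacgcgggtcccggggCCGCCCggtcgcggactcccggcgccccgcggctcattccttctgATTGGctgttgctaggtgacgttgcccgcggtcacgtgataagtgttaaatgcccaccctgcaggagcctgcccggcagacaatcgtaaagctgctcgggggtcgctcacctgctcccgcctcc

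Both windows were rich in G and C (69.3% for Dlx1 and 66.3% for Dlx2, against a median of 52.7% over 32851 promoter windows). Each held 1 GC box, a motif found in 35.7% of all windows, and Dlx2 also held 1 CCAAT box, found in 37.4%. Neither window held the homeodomain core TAATTG (8.0% of all windows) or the TATA box TATAAA (13.6%) on either strand. No match says only that these letters are not in these windows.

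Dlx3 (chromosome 11, 94981431 to 94986605) is known from tooth, hair and bone formation and is mutated in an inherited disorder of these tissues. It was read at 55.6 FPKM in control upper, 11.9 in control lower, 1.25 in mutant upper and 1.97 in mutant lower molars. The control upper library stood above all others, control lower was intermediate, and both mutant libraries were low. The genotype difference was -4.65 in upper molars and -2.11 in lower molars, or FPKM ratios of 44.4 and 6.02 in favour of the control. Dlx3 was 1 of 37 genes whose FPKM in the control upper library was at least 4 times that in every other library, against 2 to 3 such genes for each other library. The part of that library in the upper molar value was not tested, and the lower molar difference does not use it.

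Dlx4 (chromosome 11, 95001761 to 95007115), the partner of Dlx3 and the least studied of the family, was near the limit of detection. It was read at 0.566 FPKM in control upper, 0.495 in control lower, 0.0194 in mutant upper and 0.0358 in mutant lower molars. Coverage times transcript length was 1077 and 731 bases in the controls and 38.3 and 60.2 bases in the mutants, so a mutant value may rest on very few reads. The differences of -0.62 and -0.53 were not counted. Dlx3 exceeded Dlx4 in every library, by 24.0 times in control lower and 98.1 times in control upper molars.

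Dlx5 (chromosome 6, 6827805 to 6832068) and Dlx6 (chromosome 6, 6813334 to 6817970) give the lower jaw its identity and lie 9834 bases apart. Dlx5 was read at 6.64 FPKM in control upper, 28.0 in control lower, 7.44 in mutant upper and 14.6 in mutant lower molars. The upper libraries of the genotypes were close, and mutant lower lay between them and control lower. The genotype difference was 0.14 in upper molars and -0.89 in lower molars, neither of which is counted. Relative to the median of all genes the lower molar value was -0.50. Of the 2 Dlx5 transcripts in the tables, the longer one (1406 bases) carried at least 83.1% of the FPKM in each library.

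Dlx6 was read at 0.691 FPKM in control upper, 4.55 in control lower, 1.07 in mutant upper and 2.60 in mutant lower molars. It followed Dlx5 at a lower level in each library, with Dlx5 at 5.61 to 9.61 times its FPKM. The genotype difference was 0.29 in upper molars and -0.62 in lower molars, again not counted. The ratio of Dlx5 to Dlx6 on the log2(FPKM + 1) scale was 2.18 and 2.38 in control upper and lower molars. In the mutant ones it was 2.03 and 2.11, so 0.15 lower in upper and 0.27 lower in lower molars than in the control. The order of the controls depended on the pseudocount. With one of 0.1 the ratio was 3.09 and 2.59 in control upper and lower molars, and 2.69 and 2.44 in the mutant ones. In FPKM, Dlx5 stood at 9.61 and 6.15 times Dlx6 in the controls and 6.98 and 5.61 times in the mutants. Dlx6os1, a noncoding RNA whose span covers that of Dlx6, was at 0.155 FPKM in control upper, 0.952 in control lower, 0.0922 in mutant upper and 1.03 in mutant lower molars. As for Dlx1 and Dlx1as, reads of Dlx6 and Dlx6os1 cannot be told apart with certainty. In mutant lower molars coverage times length was 4033 bases for Dlx6os1 and 2577 for Dlx6.

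The summed FPKM of the 6 coding genes was 148 in control upper, 100.4 in control lower, 41.6 in mutant upper and 31.5 in mutant lower molars. The controls thus held 3.55 times the mutant total in upper and 3.18 times in lower molars. Dlx3 made up 37.6% of the control upper total and 3.01% of the mutant upper total. Dlx2 made up 34.5% of the control lower total and 8.45% of the mutant lower total. The share of Dlx5-Dlx6 was larger in the mutant, at 20.5% against 4.97% in upper and 54.6% against 32.4% in lower molars. Its summed FPKM was 7.33 in control upper, 8.51 in mutant upper, 32.5 in control lower and 17.2 in mutant lower molars, so the larger share did not come with a higher level in lower molars.

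**Figure D3:**
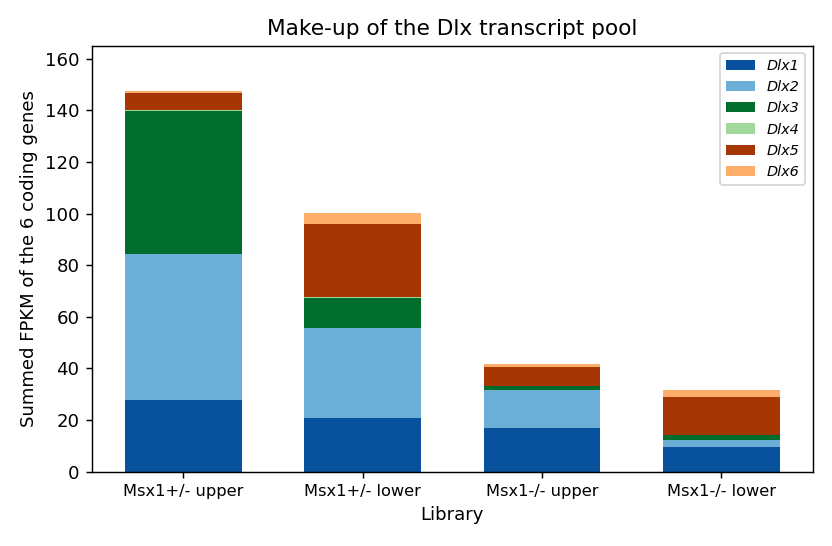
Summed FPKM of the 6 coding Dlx genes in each library as stacked bars starting at 0, with 1 bar per library and 1 colour per gene. The bars fall from 148 in Msx1+/- upper to 31.5 in Msx1-/- lower molars, with the Dlx3 block (green) nearly absent from both Msx1-/- bars.

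The order of levels differed between libraries. In control upper molars it was Dlx1as, Dlx2, Dlx3, Dlx1, Dlx5, Dlx6 and Dlx4. In control lower molars Dlx5 stood behind Dlx1as and Dlx2, and Dlx3 stood behind Dlx1. In mutant upper molars Dlx1 led, followed by Dlx2 and Dlx5, and in mutant lower molars Dlx5 led, followed by Dlx1 and Dlx1as. Neighbours in these orders often differed by less than 1 on the log2(FPKM + 1) scale, as did Dlx2 and Dlx3 in control upper molars (0.02) and Dlx2 and Dlx6 in mutant lower molars (0.02).

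Upper and lower molars were also compared within each genotype, along the axis on which Dlx genes are nested. In the control, Dlx3 was higher in upper molars and Dlx5 and Dlx6 were lower there, which is 1 member counted as higher (1.48% of all genes were) and 2 as lower (0.218% of all genes). The upper minus lower difference was 2.14 for Dlx3, -1.92 for Dlx5 and -1.72 for Dlx6. In FPKM, Dlx5 was 4.21 times and Dlx6 6.59 times as high in lower as in upper control molars. The Dlx6 ratio rests on 0.691 FPKM in control upper molars. Coverage times length there was 774 bases for Dlx6, against 1077 for Dlx4. With a pseudocount of 5 the Dlx6 difference was -0.75 and was not counted. Dlx1 (0.40), Dlx1as (0.71) and Dlx2 (0.68) were above 0 and not counted.

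In the mutant, Dlx2 was counted as higher in upper molars (2.10), where 3.2% of all genes were, and 0 members were counted as lower (0.418% of all genes). Dlx5 differed by -0.89 and Dlx6 by -0.80, the same direction as in the control. After rescaling by median of ratios they were counted as lower in upper molars, at -1.22 for Dlx5 and -1.05 for Dlx6, and both other rescalings counted them too. Rescaling by median of ratios divided all genes into 134 higher and 101 lower in mutant upper molars, against 337 higher and 44 lower as deposited. Dlx3 (-0.40) and Dlx1as (-0.19) were slightly below 0, and Dlx1 was at 0.76.

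**Figure D4:**
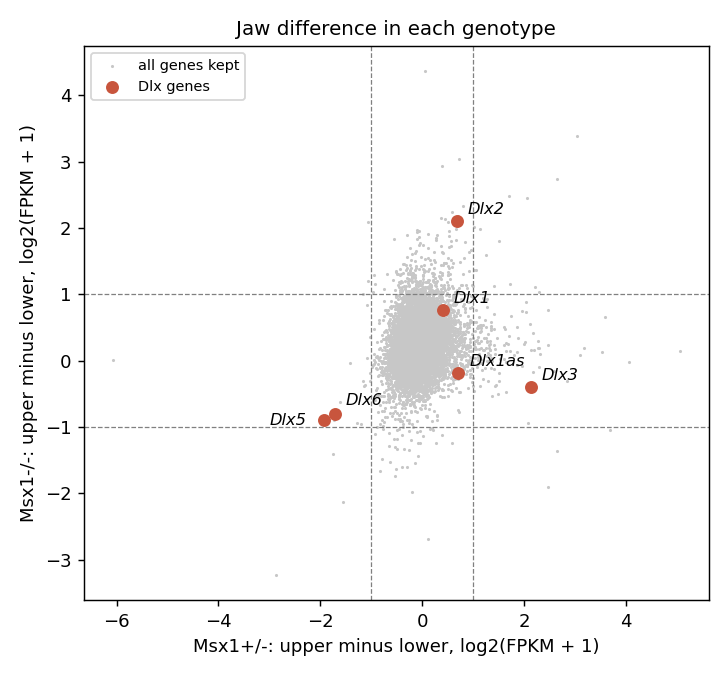
Upper minus lower difference in log2(FPKM + 1) in Msx1+/- (horizontal axis) and Msx1-/- molars (vertical axis) for all genes kept (grey) and the 6 Dlx members kept (red), with dashed lines at a difference of 1 either way. Dlx5 and Dlx6 are below 0 on both axes, Dlx3 lies far to the right at a vertical value of -0.40, and Dlx2 is above 1 on the vertical axis alone.

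The genotype difference itself differed between the jaws by 1 or more in 3 of 6 members, against 6.89% of all genes. The upper minus lower value was -2.54 for Dlx3, so its genotype difference was larger in upper molars, and 1.31% of all genes were counted in that direction. In Dlx2 (1.42) and Dlx5 (1.04) it was more positive in upper molars, as in 5.58% of all genes. Rescaled by median of ratios, Dlx5 stood at 0.61 and was not counted, and Dlx1as stood at -1.30 and was. That rescaling gave 158 genes more positive and 301 more negative, against 588 and 138 as deposited. These are differences between single libraries and were not tested.

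A limma fit of genotype and jaw as additive terms over the 4 libraries, in which the jaws stand in for replicates, was run as an alternative. The genotype coefficient was -3.49 for Dlx1as, -3.38 for Dlx3 and -2.57 for Dlx2, with limma adjusted p-values of 1.29e-28, 6.71e-27 and 1.91e-15. Dlx1 (-0.86, limma adjusted p = 0.0581), Dlx5 (-0.37, limma adjusted p = 0.571) and Dlx6 (-0.17, limma adjusted p = 0.832) did not pass. The fit gave every gene the same standard error of 0.30, taken over all genes with 1 residual degree of freedom each. These p-values therefore do not carry the spread between embryos, or the gap between the jaws in Dlx3. The fit called 113 genes higher and 566 lower of 10535.

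Genes that work with Dlx factors in jaw and tooth mesenchyme were followed in 4 lists, drawn up with earlier results of these data known. Where 4 FPKM values follow a gene name below, the controls come before the mutants and, within each, upper before lower molars. Of 18 regulators of dental mesenchyme kept (of 19), 5 were lower in both jaws (1.59% of all genes were) and 0 higher (0.399%), with a median genotype difference of -0.43 in upper and -0.87 in lower molars, against -0.03 and -0.39 over all genes. The counted genes were Fgf3, the Wnt effector Lef1, the activin subunit gene Inhba, Runx2 and, chosen after its values were seen, Prrx2. Fgf3, a ligand that signals from mesenchyme to epithelium, was at 6.44 FPKM in control upper, 8.66 in control lower, listed at 0 in mutant upper and 0.0365 in mutant lower molars. Lef1 was at 117, 93.5, 23.1 and 11.3 FPKM. Other regulators known from the same tissue were not counted in both jaws, among them Barx1 (104, 74.5, 86.4 and 83.4 FPKM) and Pax9, both chosen after their values were seen.

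Endothelin signalling acts upstream of Dlx5 and Dlx6 in the lower jaw, and Hand2 downstream of them. Of 8 genes of that list kept (of 15), 0 were counted in both jaws (0.399% of all genes were higher and 1.59% lower), with a median of -0.25 in upper and -0.29 in lower molars, against -0.03 and -0.39 over all genes. The receptor gene Ednra, the most abundant, was at 29.6 FPKM in control upper, 32.8 in control lower, 24.6 in mutant upper and 30.8 in mutant lower molars. The ligand gene Edn1 and Hand1 were under 0.1 FPKM in every library, and Hand2 was listed at 0 in 3 libraries and at 0.119 FPKM in mutant lower molars. Gsc, a homeobox gene of the lower jaw chosen here after its values were seen, was higher in lower molars of both genotypes (0.660, 4.59, 2.06 and 7.13 FPKM). In both genotypes, 0.0285% of all genes were counted in that direction.

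Of 15 genes kept (of 16) for proteins that bind Dlx or Msx factors or act with homeodomain proteins, 1 was higher in both jaws (0.399% of all genes were) and 0 lower (1.59%). It was Meis2, a homeodomain cofactor gene, at 1.27 FPKM in control upper, 0.987 in control lower, 8.08 in mutant upper and 4.90 in mutant lower molars. The median of that list was 0.04 in upper and -0.38 in lower molars, against -0.03 and -0.39 over all genes. Maged1, whose protein binds Dlx and Msx factors, was at 171, 173, 179 and 99.3 FPKM, a value chosen after it was seen. Of 8 bone genes kept (of 11) that Dlx factors are known to act on, 2 were higher in both jaws (Ibsp and Ifitm5, against 0.399% of all genes) and 2 lower (Spp1 and Runx2, against 1.59%). The medians were 0.43 in upper and -0.02 in lower molars, against -0.03 and -0.39 over all genes. Ibsp, a bone matrix protein gene, was at 4.25, 2.40, 19.1 and 9.21 FPKM, and Spp1, another, was at 5.70, 6.92, 0.0217 and 0.0213 FPKM. Cartilage markers summed to 5.54 to 6.71 FPKM in the controls and 14.1 to 20.9 in the mutants, and their part in these values was not tested.

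Within 500 kb of a pair the tables held 37 other gene names, of which 24 were kept, and 1 of the 24 was lower in both jaws (1.59% of all genes were). Near Dlx1-Dlx2, 3 of 9 kept genes were lower in upper molars (3.27% of all genes), namely Slc25a12 (-1.15), Metap1d (-1.87) and Itga6 (-1.20). Near Dlx3-Dlx4, 2 of 13 were lower in lower molars (9.42% of all genes), Lrrc59 (-1.24) and Fam117a (-1.03). Of these 5 genes, all but Metap1d were chosen after their values were seen. The gene counted in both jaws was Itga6, an integrin gene 240 kb from Dlx1-Dlx2 (10.4, 8.82, 3.99 and 1.89 FPKM). The nearest gene on the other side, Metap1d, lies 4.25 kb from Dlx1 and encodes a mitochondrial aminopeptidase. It was at 22.5 FPKM in control upper, 6.52 in control lower, 5.42 in mutant upper and 7.94 in mutant lower molars, so that the control upper library stood apart from the other three. Beside Dlx3-Dlx4 the nearest genes that passed the filter were Pdk2 (8.48, 6.42, 9.31 and 9.79 FPKM) and Myst2 (4.16, 3.54, 3.77 and 2.39 FPKM), and beside Dlx5-Dlx6 they were Shfm1 and Acn9. None of these 4 was counted in either jaw.

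**Figure D5:**
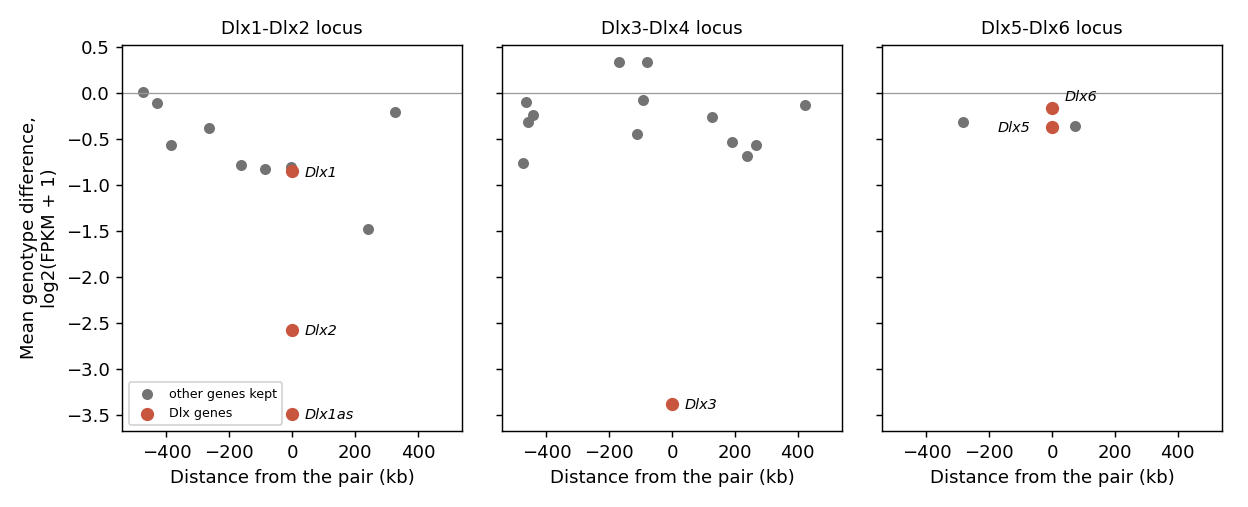
Mean genotype difference over the jaws, log2(FPKM + 1), against distance from each Dlx pair in kilobases, for other genes kept (grey) and the Dlx transcripts kept (red, drawn at 0). Dlx1as, Dlx2 and Dlx3 lie below all other genes of their windows, whereas Dlx1 (-0.86) lies above Itga6 (-1.48), and Dlx5 (-0.37) and Dlx6 (-0.17) lie near Shfm1 (-0.32) and Acn9 (-0.36).

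Patterns over the 4 libraries were compared by the Euclidean distance between log2(FPKM + 1) values centred on each gene's mean, as a description over 4 values that carries no test. Within the family the closest were Dlx5 and Dlx6 (0.26), followed by Dlx1as and Dlx3 (1.02). Dlx1 and Dlx2 were 1.97 apart and Dlx1 and Dlx1as 2.72. Among 5326 other genes that averaged 5 FPKM or more, the median distance to Dlx3 was 3.51. Nearest to Dlx3 were Nptx1 (1.003), Bmp3 (1.53) and Inhba (1.55), and nearest to Dlx1as were Nptx1 (0.59), Mical2 (0.72) and Klf10 (0.90).

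Dlx2 was most like Pappa2 (0.64), Spock2 (0.75) and the retinoic acid synthesis gene Aldh1a2 (0.82), against a median of 2.67. Dlx5 was most like Crip1 (0.73), Snhg1 (0.89) and Ebf1 (0.91), and Dlx6 like Crip1 (0.53), Ebf1 (0.68) and 1700034H14Rik (0.68). Crip1 was at 12.0 FPKM in control upper, 28.1 in control lower, 15.2 in mutant upper and 19.0 in mutant lower molars. Dlx1 was most like Pa2g4 (0.06), Elk4 (0.07) and Tbcb (0.09), and the median distance to it was 0.79, the smallest such median of the 6 members.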

How the data were processed

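Per the labels' protocols, total RNA of laser-captured molar mesenchyme became cDNA for 4 libraries by the NuGEN Ovation system (version 2). The submitters' processing notes name Bowtie 0.12.7, TopHat 1.4.1 and the mm9 build. Per the file headers, the authors deposited an FPKM value and a coverage signal for each of 28107 RefSeq transcripts, in Cufflinks columns. Coverage was a constant multiple of FPKM within a library.

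FPKM was summed per gene name. Genes with a failed estimate (66) and small RNA names (717) were left out, and 10535 genes that averaged 1 FPKM or more were kept. Differences are of log2(FPKM + 1) of the deposited values, a scale that understates changes of low genes. With 1 library per group there is no test in the main results and depth sets no interval. The limma fit (limma 3.58.1, R 4.3.3) was tested on simulated data that gave every gene the same spread and no jaw effect. That setting cannot check the p-values where spread is unequal or the jaws differ. Table coordinates are mm9, with 1 added to starts, and sequences are GRCm38.

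The members and lists were chosen with earlier results of these data known. Named genes are the members, Msx1, the 3 nearest patterns per member, up to 4 list genes counted in both jaws or else the most abundant one, the nearest neighbours of each pair, and the 2 most abundant markers of a cell type. Cell type lists are given by their sums, except that Gap43 and Nefl are named by that rule, Krt15 as counted in both jaws, and Gad1, Gad2 and Shh outside it, after their values were seen. Alternatives were pseudocounts of 0.1 and 5, no filter, a minimum mean of 5 FPKM, 3 rescalings, the most abundant transcript alone, Dlx1 with Dlx1as summed, and limma. The summed level of the neuron markers is not reported here.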

Additional observations from a re-analysis of the deposited data

Results flagged for a closer look

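In 4 members an effect pointed one way in one group and the other way in the other. Each side is a difference between 2 single libraries, and the contrast between the sides was not tested. The genotype difference of Dlx5 was 0.14 in upper and -0.89 in lower molars, and that of Dlx6 was 0.29 in upper and -0.62 in lower molars. The upper minus lower difference of Dlx3 was 2.14 in Msx1+/- and -0.40 in Msx1-/- molars, and that of Dlx1as was 0.71 and -0.19. Of these 8 values, only the Dlx3 difference in the control reached 1 in size.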

How the results depend on the processing

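No paired analysis was possible because each group has 1 library and the labels carry no replicate numbers. For the same reason no replicate could be left out. Of 324 differences of single members recomputed under the alternatives, 301 stayed counted or uncounted, 10 were no longer counted, 13 became counted, and 0 that were counted changed sign. The limma values are among the 301. They equal the mean over jaws by construction and were judged by an adjusted p below 0.05, not by a size of 1. Small values changed sign in 6: the mean genotype difference of Dlx6 (-0.17) was 0.03, 0.06 and 0.04 under the 3 rescalings, and genotype by jaw for Dlx1 (0.36) was -0.05 after median of ratios, -0.03 at a common total and -0.18 summed with Dlx1as. Dlx1as, Dlx2 and Dlx3 stayed counted in each jaw under every pseudocount, filter, rescaling and transcript choice run. The limma fits gave only the mean over jaws. Apart from a filter that left a member out, the cause of the following changes was not tested. In mutant molars, members counted as lower in upper than in lower molars numbered 1 with a pseudocount of 0.1 (0.835% of all genes were). They numbered 2 under each rescaling (0.854% to 0.959% of all genes), against 0 as reported (0.418%). In control molars they numbered 1 with a pseudocount of 5 (0.057% of all genes), against 2 (0.218%). They also numbered 1 with a minimum mean of 5 FPKM (0.338%), a filter that left out Dlx6 (mean 2.23 FPKM) and kept Dlx5 at -1.92. For genotype by jaw, higher members numbered 3 with a pseudocount of 0.1 (1336 of all 10535 genes were), against 2 as reported (588). They numbered 0 with a pseudocount of 5 (139 of all genes) and 1 under each rescaling (158 to 186). Lower members numbered 2 under each rescaling (253 to 301 of all genes were), against 1 as reported (138). The log2 ratio of Dlx1 to Dlx2 was -1.01 in control upper molars with a pseudocount of 0.1 and 0.93 in mutant lower molars with one of 5. With a pseudocount of 5, that of Dlx3 to Dlx4 was 0.32 in mutant upper and 0.47 in mutant lower molars. Robust moderation in limma, chosen after seeing that the planned fit gave all genes 1 standard error, gave Dlx1 a limma adjusted p of 0.0625 and Dlx3 one of 6.06e-17.

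Counts over all genes moved more. Over the alternatives, genes higher in mutant upper molars ranged from 40 to 247 (113 as reported) and lower ones from 141 to 495 (344). In lower molars they ranged from 29 to 272 (91) and from 299 to 1705 (992). For the jaw difference they ranged from 62 to 231 (156) and 6 to 91 (23) in the control, and from 90 to 787 (337) and 8 to 101 (44) in the mutant. For genotype by jaw they ranged from 139 to 1336 (588) and 49 to 301 (138), and genes counted in both jaws ranged from 14 to 87 (42) and 66 to 280 (168). By their own criterion, an adjusted p below 0.05 on the mean over jaws, the limma fits called 112 to 113 genes higher and 542 to 566 lower. Without counts or replicates, depth sets no interval here.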
